A study of Mus musculus with 42 samples.

Results

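The 5 genes Drd1, Tac1, Slc35d3, Chrm4 and Isl1, known as genes of the direct pathway projection neurons of the striatum, were followed across 42 mouse brain arrays. They were taken as every probe set annotated to 1 of these genes alone, which gave 8 probe sets for 5 of the 18193 genes measured. Drd1, Tac1 and Isl1 had 2 probe sets each, while Slc35d3 and Chrm4 had 1 each. Where a gene had 2, the one with the higher mean over all arrays stood for the gene.

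The arrays came from snap-frozen, microdissected striatum (20 arrays) and hippocampus (22 arrays) of mice on the C57BL6 strain. The mice were labelled WT or PDE10A KO and had received vehicle or a PDE10 inhibitor. The WT mice gave 5 vehicle and 6 inhibitor arrays of striatum, and 6 of each of hippocampus. The KO mice gave 5 vehicle and 4 inhibitor arrays of striatum, and 5 of each of hippocampus. Total RNA extracted with Trizol was turned into biotin-labelled cRNA and hybridised to Affymetrix arrays, and the deposited values are on the log2 scale after RMA, so that a difference of 1 is a 2-fold difference in signal. The sources used here do not give the inhibitor's name, its dose, the time after dosing, the age and sex of the mice or the deleted part of Pde10a. Since the labels do not tie arrays to animals, a p-value here sets a result only against the spread of samples within groups, and that spread could be technical.

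Striatal projection neurons fall into the direct pathway, which projects to the substantia nigra and the internal pallidal segment and promotes movement, and the indirect pathway, which reaches those nuclei through the external pallidum and restrains it. Direct pathway neurons carry the dopamine D1 receptor, which raises cAMP, and release GABA together with substance P and dynorphin. Indirect pathway neurons carry the dopamine D2 receptor and release enkephalin. PDE10A is a phosphodiesterase that breaks down cAMP and cGMP in both kinds of neuron, so that its loss or inhibition is known to raise cyclic nucleotides in both. Drd1 encodes the D1 receptor, Chrm4 the M4 muscarinic receptor, which lowers cAMP in the same neurons, and Tac1 the precursor of substance P. Slc35d3 encodes a member of the nucleotide sugar transporter family linked to trafficking of the D1 receptor. Isl1 encodes a LIM homeodomain transcription factor needed for direct pathway identity, and it is also present in cholinergic interneurons.

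Since cAMP acts on transcription in part through the cAMP response element, the 250 bases before the RefSeq transcription start were searched for all 5 genes in build GRCm38.p6, and 4 are shown. Drd1, Tac1 and Slc35d3 are shown because their signals moved together from array to array, and Isl1 because its window holds the element's 5-base core more than once. The capitals mark the core TGACG or its reverse complement CGTCA. Drd1 lies at chr13:54051183-54055658, Tac1 at chr6:7555061-7562978, Slc35d3 at chr10:19847917-19856634, Chrm4 at chr2:91922189-91929835 and Isl1 at chr13:116298270-116309688. The Drd1 window is chr13:54055659-54055908 on the minus strand, the Tac1 window chr6:7554811-7555060 on the plus strand, the Slc35d3 window chr10:19851460-19851709 on the minus strand and the Isl1 window chr13:116309689-116309938 on the minus strand. The Slc35d3 window precedes a start that lies inside the gene's annotated span.
Drd1: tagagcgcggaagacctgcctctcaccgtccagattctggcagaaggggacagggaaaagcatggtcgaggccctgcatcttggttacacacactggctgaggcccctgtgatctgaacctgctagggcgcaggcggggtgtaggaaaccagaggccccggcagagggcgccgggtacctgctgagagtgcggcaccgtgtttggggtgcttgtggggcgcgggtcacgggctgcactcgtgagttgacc
Tac1: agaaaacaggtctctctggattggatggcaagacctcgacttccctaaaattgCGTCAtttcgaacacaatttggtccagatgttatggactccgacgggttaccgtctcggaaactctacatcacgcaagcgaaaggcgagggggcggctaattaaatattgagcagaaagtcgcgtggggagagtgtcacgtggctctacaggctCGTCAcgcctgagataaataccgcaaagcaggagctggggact
Slc35d3: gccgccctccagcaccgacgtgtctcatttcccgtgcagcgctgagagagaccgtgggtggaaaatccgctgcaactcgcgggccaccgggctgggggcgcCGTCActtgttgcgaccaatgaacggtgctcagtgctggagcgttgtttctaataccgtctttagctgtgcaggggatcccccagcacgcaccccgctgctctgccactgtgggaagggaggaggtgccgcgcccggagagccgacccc
Isl1: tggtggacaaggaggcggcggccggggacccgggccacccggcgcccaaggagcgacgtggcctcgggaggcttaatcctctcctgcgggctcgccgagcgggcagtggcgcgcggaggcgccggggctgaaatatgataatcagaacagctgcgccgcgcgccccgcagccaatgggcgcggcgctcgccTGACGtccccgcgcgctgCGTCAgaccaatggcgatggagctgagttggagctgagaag

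The full palindrome TGACGTCA was in none of the member windows. The core was found 2 times before Tac1, starting 197 and 43 bases upstream, once before Slc35d3 at 149 bases, and 2 times before Isl1 at 59 and 41 bases. Neither Drd1 start region nor the Chrm4 region held it. Of 32851 windows of this length before RefSeq starts, 17.8% held the core on either strand and 1.55% held the full element. The Tac1 window also held the E-box CACGTG, found in 6.02% of windows, and the TATA box motif TATAAA or its reverse complement, found in 12.4% of windows, was in none of the members' windows. These are matches of letters in a short window, and binding of a factor was not measured.

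The arrays themselves were checked before the genes were compared. Pde10a, the gene named by the KO label, was not lower on KO-labelled arrays: in vehicle striatum it read 12.35 ± 0.22 (SD, n = 5) with the KO label and 12.32 ± 0.26 (SD, n = 5) with the WT label. The sources used here do not say whether its probe sets lie in the deleted part, so this checks nothing about the deletion. A score over 15 genes of the chromosome that carries Pde10a, chosen in the other brain region, put 8 of the 42 arrays on the side opposite to their genotype label. In striatum these were KO vehicle array 25 and WT inhibitor arrays 13, 14 and 15 (array numbers are those of the titles). In hippocampus they were KO vehicle arrays 25 and 26 and WT inhibitor arrays 12 and 14. Striatal WT inhibitor arrays 13 and 15 scored 0.59 and 0.54, near the cut of 0.5. The scale was set by the medians of the WT vehicle and KO inhibitor arrays, which favours agreement with the label in those groups. The arrays stayed in their labelled groups, "WT" and "KO" stand for the label throughout, and results are also given without those 8 arrays. Those fits keep only arrays 10, 11 and 12 of WT inhibitor striatum, and only arrays 28, 29 and 30 of KO vehicle hippocampus. Median signal lay between 6.05 and 6.12 on every array.

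The members marked striatum. On WT vehicle arrays all 5 were higher in striatum than in hippocampus by limma with Benjamini-Hochberg adjustment over 18193 genes. A gene is called, or passes, where this adjusted p is under 0.05. In that comparison 33.9% of all genes passed in either direction and 15.9% passed as higher in striatum. Slc35d3 was 4.87 ± 0.15 higher (log2 ± SE, adjusted p = 6.46e-26, limma), with rank 3 among all genes by p-value. Drd1 was higher by 4.58 ± 0.22 (23.9-fold) and Tac1 by 4.55 ± 0.15 (23.4-fold). Isl1 was 3.09 ± 0.22 higher (8.52-fold). Chrm4 was only 0.80 ± 0.14 higher (1.74-fold), with an adjusted p of 2.9e-05 in limma. In hippocampus the probe sets of Slc35d3, Isl1 and Chrm4 were dim, with medians of 4.00, 4.54 and 4.56, and a signal this low need not follow the amount of RNA. The differences and ranks of these 3 genes are therefore those of the signal.

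Over all arrays of each region, Drd1 ran from 10.98 through a median of 11.66 to 11.83 in striatum and from 6.00 through 7.0003 to 7.81 in hippocampus. Tac1 ran from 12.47 through 12.87 to 13.29 in striatum and from 7.93 through 8.40 to 9.26 in hippocampus. Slc35d3 ran from 8.24 through 9.07 to 9.30 in striatum and from 3.63 through 4.00 to 4.50 in hippocampus. For each of these genes the lowest striatal array lay over 3 log2 units above the highest hippocampal one. Over all genes 7.07% had striatal and hippocampal arrays without overlap in either direction. Isl1 ran from 6.90 through 7.55 to 8.20 in striatum and from 3.90 through 4.54 to 5.38 in hippocampus, which leaves a gap of 1.52 between the regions. Chrm4 ran from 4.68 through 5.23 to 5.78 in striatum and from 4.05 through 4.56 to 5.00 in hippocampus. Its regions overlapped, and since its probe set stayed at or below 5.78 on every array, it was dim in both. The second probe sets of Drd1 and Isl1 also separated the regions, by gaps of 3.23 and 1.60 between the nearest arrays. The second probe set of Tac1 was dim throughout, from 3.68 through a median of 3.99 to 4.29 in striatum and from 3.70 through 3.92 to 4.15 in hippocampus, and its regions overlapped.

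**Figure D1:**
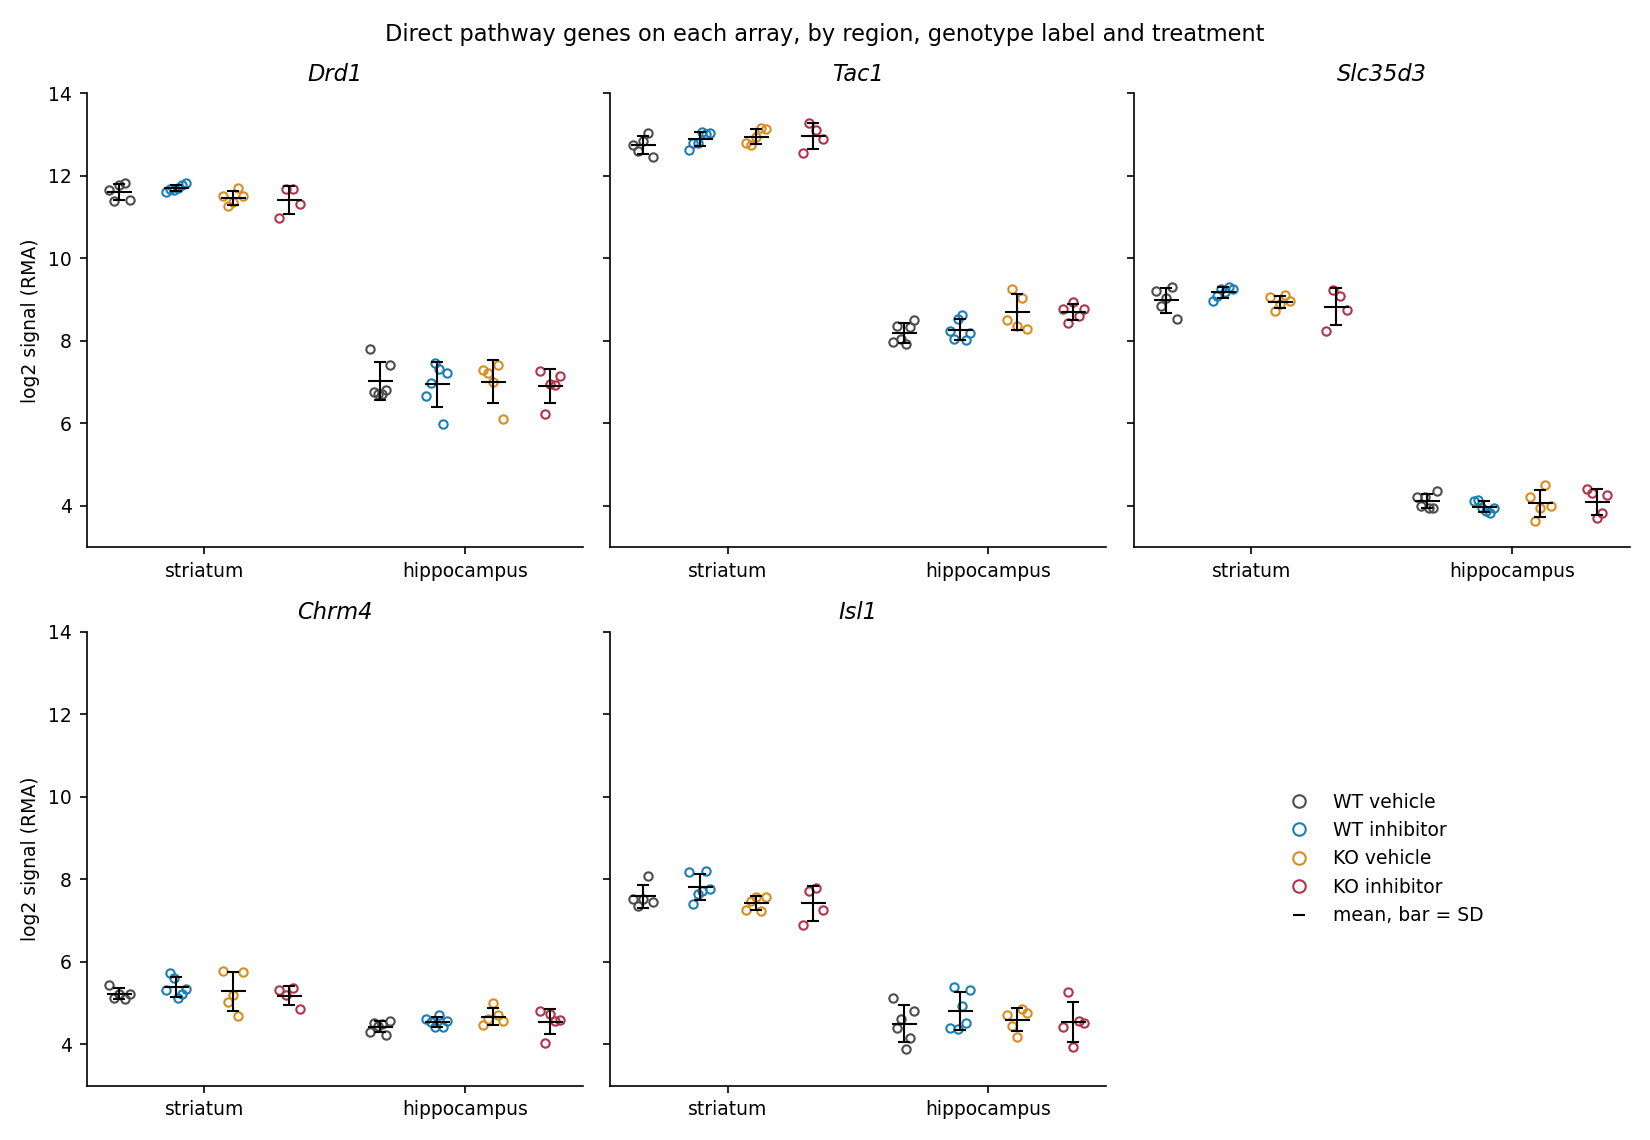
Log2 RMA signal of each gene on each of the 42 arrays, with 1 panel per gene and the 4 groups of striatum at left and of hippocampus at right. Open circles are arrays, and the black mark and bar are the group mean and SD. Drd1, Tac1, Slc35d3 and Isl1 separate the regions without overlap, Chrm4 overlaps, and the groups of a region lie close together for every gene. Signals of different genes are not comparable in level.

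All 5 members were called higher in striatum in each of the other pairs of regional groups too. All genes called made up 35.6% with the inhibitor in WT (18.4% as higher in striatum), 27.3% in KO vehicle (12.5%) and 26.1% in KO inhibitor (10.6%). Slc35d3 was 5.20, 4.90 and 4.73 higher in those 3 pairs. Tac1 was 4.62, 4.26 and 4.26 higher, and Drd1 4.77, 4.46 and 4.51 higher. Slc35d3 ranked between 1 and 3 by p-value among all genes in the 4 pairs, Tac1 between 4 and 7, and Drd1 between 22 and 26. Chrm4 in KO vehicle was 0.62 higher in striatum (adjusted p = 0.00148, limma). Without the arrays on the opposite genotype side it was 0.41 ± 0.17 higher and no longer passed (adjusted p = 0.104, limma). Without those arrays 5 of 5 members still passed in WT vehicle (34.4% of all genes called), WT inhibitor (29.1%) and KO inhibitor (26.8%), and 4 of 5 in KO vehicle (20.1%).

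The other genes that mark the dissection went with the members. In WT vehicle all 3 measured indirect pathway markers were higher in striatum with a median of 5.41, among them Drd2 by 5.41 and Penk, the enkephalin precursor, by 4.57. The median of all genes was 0.03. Of 15 genes shared by both kinds of projection neuron, 14 were higher and Rgs14, which is abundant in the CA2 field of the hippocampus, was lower by -0.64. Of 8 glutamatergic markers of cortex and hippocampus, 6 were lower in striatum, such as Slc17a7, the vesicular glutamate transporter of these neurons, by -2.43. Among 15 genes of D1 receptor signalling, 8 were higher and 3 lower. Gnal, the G protein subunit through which the D1 receptor activates adenylyl cyclase in striatum, was higher by 2.35. Adcy5, the main striatal adenylyl cyclase, was higher by 3.00, and Ppp1r1b, which encodes DARPP-32, by 4.24. Gnas, whose product does the same task in most other tissues, was lower by -0.78.

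Within their families the members stood beside genes with other patterns. Of the 4 dopamine receptor genes measured, Drd1 and Drd2 were the ones called higher in striatum. Of 3 muscarinic receptor genes Chrm4 was higher, Chrm3 was lower by -0.90 and Chrm1 did not pass (-0.14 ± 0.09, adjusted p = 0.222, limma). In the tachykinin system of 9 genes, Tac1, the receptor gene Tacr3 (1.02) and Mme, which encodes the substance P degrading enzyme neprilysin (3.36), were higher. Cpe, a carboxypeptidase that trims peptide precursors, was lower by -0.15. Tacr1, the gene of the substance P receptor, differed by 0.01 ± 0.09 and did not pass. Among the other markers of direct pathway neurons, Pdyn (2.10), Ebf1 (1.90), Zfp521 (0.76) and Sfxn1 (0.55) were higher in striatum and Eya1 was lower by -0.75. For Isl1, which cholinergic interneurons also carry, the cholinergic markers Lhx8 (3.28), Slc18a3 (0.93) and Slc5a7 (0.77) were higher in striatum as well. Bulk tissue does not tell less RNA per cell from fewer cells of a type, and this holds for every comparison here.

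In WT striatum the PDE10 inhibitor was not followed by a called change in any member. None of the 5 passed in limma, where 0.181% of all genes did (33 of 18193), and none had an unadjusted p under 0.05, against 1741 of all genes.

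Drd1 on WT vehicle arrays read 11.66, 11.40, 11.77, 11.83 and 11.41, and with the inhibitor it ran from 11.61 through a median of 11.71 to 11.82. The inhibitor arrays lay inside the range of the vehicle arrays. The difference was 0.10 ± 0.11 (log2 ± SE, 95% interval -0.14 to 0.34, adjusted p = 0.888, limma). Chrm4, the other receptor, read 5.44, 5.13, 5.23, 5.10 and 5.22 on vehicle arrays and ran from 5.11 through 5.32 to 5.73 with the inhibitor. Both groups covered much the same values at this low signal, with a difference of 0.17 ± 0.17.

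Tac1 read 12.76, 12.62, 12.84, 13.03 and 12.47 on WT vehicle arrays and ran from 12.63 through 12.91 to 13.07 with the inhibitor. The groups overlapped, and the difference of 0.15 ± 0.13 did not pass (adjusted p = 0.801, limma). Slc35d3 read 9.21, 8.86, 9.04, 9.30 and 8.52 on vehicle arrays, the last of which was the lowest, and ran from 8.98 through 9.22 to 9.30 with the inhibitor. Its difference was 0.19 ± 0.15, with an interval of -0.12 to 0.50. Isl1 read 7.53, 7.36, 7.53, 8.08 and 7.46 on vehicle arrays and ran from 7.41 through 7.74 to 8.20 with the inhibitor. WT vehicle array 4 stood above the other vehicle arrays and inside the inhibitor range, and the difference was 0.23 ± 0.17 (adjusted p = 0.759, limma). The second Isl1 probe set gave 0.28 ± 0.14, which did not pass either (adjusted p = 0.666 over all probe sets). The highest upper bound among the 5 intervals was 0.58, for Isl1.

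All 5 differences were positive, with a median of 0.17 against -0.0005 over all genes. Of the indirect pathway markers 3 of 3 were positive, with a median of 0.23, and of the shared projection neuron genes 12 of 15, with a median of 0.13. None of these passed the test. The 8 glutamatergic markers were all lower, with a median of -0.75 and none called. Their mean signal ran from 6.48 to 8.54 on WT vehicle arrays and from 6.39 to 7.97 on WT inhibitor arrays. The 7 vascular markers were all positive with a median of 0.34, and choroid plexus markers had a median of -0.64, with none called. With the mean of the glutamatergic markers added to the fit, the difference became -0.06 ± 0.10 for Drd1, 0.01 ± 0.12 for Tac1, -0.03 ± 0.13 for Slc35d3, 0.16 ± 0.19 for Chrm4 and -0.03 ± 0.14 for Isl1. Without the arrays on the opposite genotype side, where 4.23% of all genes passed, the differences were 0.04 for Drd1, 0.0033 for Tac1, 0.12 for Slc35d3, 0.33 for Chrm4 and 0.15 for Isl1, with none called. The part of cortical tissue in these values was not tested.

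The KO label likewise went with no called member in vehicle striatum, where 0.137% of all genes passed in limma (25 of 18193) and 1081 had an unadjusted p under 0.05, none of them a member. This comparison and that of the inhibitor in WT share the WT vehicle arrays. Drd1 read 11.51, 11.26, 11.36, 11.70 and 11.52 on KO vehicle arrays, overlapping the WT vehicle arrays, and differed by -0.14 ± 0.12 (95% interval -0.39 to 0.10). Tac1 read 12.79, 12.74, 12.96, 13.16 and 13.13. Of its KO arrays 3 lay within the WT range and 2 above it, and the difference of 0.21 ± 0.13 did not pass (adjusted p = 0.965, limma). Slc35d3 read 9.06, 8.73, 8.90, 9.10 and 8.98, all within the WT vehicle range, and differed by -0.03 ± 0.16. Chrm4 read 5.78, 5.03, 5.19, 4.68 and 5.76, a wider spread than on WT vehicle arrays, with a difference of 0.06 ± 0.17. Isl1 read 7.27, 7.49, 7.58, 7.23 and 7.58, overlapping the WT arrays, and differed by -0.17 ± 0.17. The median of the 5 differences was -0.03, beside -0.0015 over all genes. Leaving out KO vehicle array 25 and the other arrays on the opposite genotype side raised the share of all genes called to 0.797% and still called no member.

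In KO striatum the inhibitor against vehicle gave 0 called members and 0% called among all genes in limma, with 257 genes and 0 members at an unadjusted p under 0.05. Drd1 on KO inhibitor arrays read 10.98, 11.67, 11.68 and 11.33, Tac1 12.56, 13.29, 13.11 and 12.90, and Slc35d3 8.24, 9.24, 9.10 and 8.74. In all 3 genes array 34 was lowest, and arrays 35 and 37 were the highest. Isl1 read 6.90, 7.72, 7.79 and 7.27, with the same array lowest, and Chrm4 read 5.31, 5.20, 5.37 and 4.85, where array 39 was lowest instead. Each gene overlapped its KO vehicle arrays. The differences from KO vehicle were -0.06 ± 0.13 for Drd1, 0.01 ± 0.14 for Tac1, -0.12 ± 0.17 for Slc35d3, -0.10 ± 0.18 for Chrm4 and -0.01 ± 0.19 for Isl1. The inhibitor's effect in WT minus that in KO, tested as an interaction, was positive for all 5 with a median of 0.24 (0.01 over all genes). It ranged from 0.14 ± 0.19 for Tac1 to 0.31 ± 0.22 for Slc35d3, with adjusted p between 0.859 and 0.96 in limma. Here 0% of all genes passed and 1346 genes, none a member, had an unadjusted p under 0.05. Without the arrays on the opposite genotype side 0.868% of all genes passed and still no member.

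With the inhibitor in both genotypes, KO-labelled striatum read lower than WT for 4 of the 5 genes, and none passed adjustment in limma, where 0% of all genes did. Drd1 differed by -0.30 ± 0.12 (unadjusted p = 0.0232, adjusted p = 0.321, limma), Slc35d3 by -0.35 ± 0.16 (0.0421 and 0.39) and Isl1 by -0.40 ± 0.18 (0.0357 and 0.368). These 3 members stood among 2216 genes with an unadjusted p under 0.05. Chrm4 differed by -0.21 ± 0.18 and Tac1, the exception in direction, by 0.07 ± 0.13. The second Isl1 probe set gave -0.50 ± 0.15 (unadjusted p = 0.00376, adjusted p = 0.262 over all probe sets, limma). As single arrays were left out, the difference ran from -0.39 to -0.15 for Drd1 and from -0.48 to -0.15 for Slc35d3. For Isl1 it ran from -0.52 to -0.23. The smallest differences came without KO inhibitor array 34: -0.15 ± 0.11 for Drd1, -0.15 ± 0.14 for Slc35d3 and -0.23 ± 0.17 for Isl1. That array also had the highest mean of the glutamatergic markers in its group, 9.10 where the group ran from 6.68, and the lowest mean of the shared projection neuron genes, 10.59 where the group mean was 11.08. In the same comparison 13 of 15 shared projection neuron genes and 3 of 3 indirect pathway markers were negative, with medians of -0.30 and -0.26, and all 8 glutamatergic markers were positive with a median of 1.01. None of those was called. Without the arrays on the opposite genotype side 6.52% of all genes passed, and again 0 members, with Drd1 at -0.24 ± 0.16. The part of tissue content in the members' values was not tested.

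**Figure D2:**
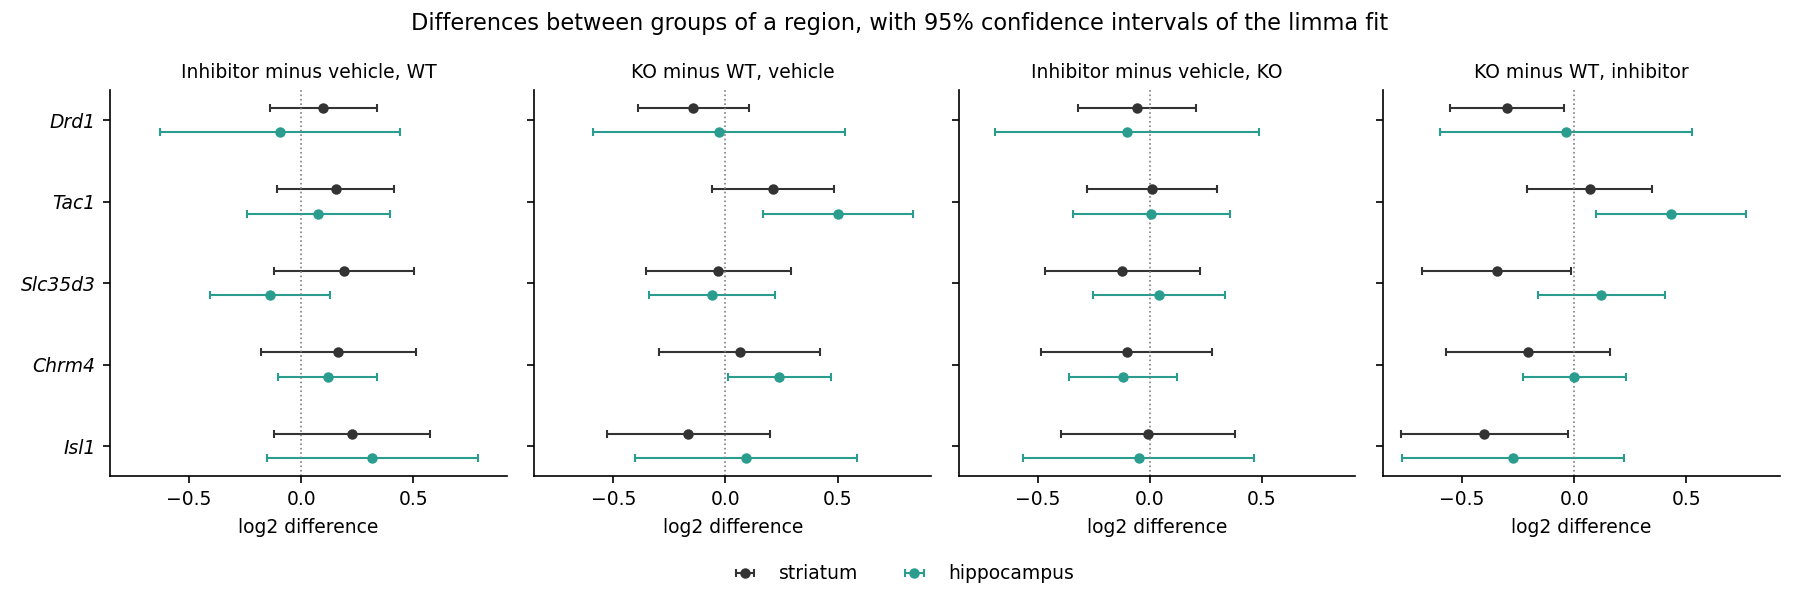
Log2 difference between groups for each gene, with 95% confidence intervals from the limma fits of striatum (black) and hippocampus (green), in 4 panels for the 4 comparisons within a region. Most intervals cross 0, apart from Drd1, Slc35d3 and Isl1 in striatum under the inhibitor, Tac1 in both hippocampal KO comparisons and Chrm4 in the vehicle one, and none of these passed after adjustment over all genes.

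In hippocampus, where the members read lower than in striatum, no member was called in any of the 5 comparisons in limma. The shares of all genes called were 0% for the inhibitor in WT, 0% for KO in vehicle, 0% for the inhibitor in KO, 0.0055% for KO under the inhibitor (1 gene) and 0% for the interaction. At an unadjusted p under 0.05 these comparisons held 1948, 1205, 695, 2836 and 2151 genes, and 0, 2, 0, 1 and 0 members.

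Tac1 was the member that differed most there. It ran from 7.93 through 8.20 to 8.50 on WT vehicle arrays and read 8.51, 9.26, 8.36, 9.05 and 8.30 on KO vehicle arrays. The KO arrays were higher as a group but 2 of the 5 lay within the WT range. The difference was 0.50 ± 0.16 (1.42-fold, 95% interval 0.17 to 0.84, unadjusted p = 0.00522, adjusted p = 0.612, limma). With the inhibitor WT ran from 8.02 through 8.21 to 8.62 and KO read 8.77, 8.43, 8.94, 8.62 and 8.77, again higher and overlapping, by 0.43 ± 0.16 (adjusted p = 0.245, limma). When each array was weighted by its quality, the second difference was 0.52 ± 0.14 and passed (adjusted p = 0.0454), in a fit that called 3.62% of all genes. Without the arrays on the opposite genotype side the differences were 0.37 ± 0.17 and 0.43 ± 0.16, and neither passed (adjusted p = 1 and 0.483, limma), with 0.0824% and 0.055% of all genes called. The dim second Tac1 probe set gave -0.03 ± 0.07 and -0.13 ± 0.07.

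Among the others in hippocampus, Drd1 had the widest range over arrays by the probe sets that stood for the genes. The dim second Isl1 probe set ranged more widely, from 3.20 to 5.63. Drd1 ran from 6.72 through 6.79 to 7.81 on WT vehicle arrays and read 7.30, 7.21, 7.01, 7.42 and 6.11 on KO vehicle arrays. With the inhibitor it ran from 6.00 through 7.11 to 7.48 in WT and read 7.27, 6.22, 6.96, 6.94 and 7.14 in KO. All 4 groups overlapped, and the differences lay between -0.10 and -0.03. Chrm4 was 0.24 ± 0.11 higher on KO vehicle arrays (unadjusted p = 0.0416, adjusted p = 0.748, limma), where it lay between 4.46 and 5.00 against 4.22 to 4.56 in WT. Slc35d3 lay between 3.63 and 4.50 and Isl1 between 3.90 and 5.38 over all hippocampal arrays, and their groups overlapped in every comparison.

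The groups of a region were also ordered by their means. In striatum the group means of Drd1, Slc35d3 and Isl1 fell in the order WT inhibitor, WT vehicle, KO vehicle, KO inhibitor. For Tac1 the order was KO inhibitor, KO vehicle, WT inhibitor, WT vehicle. In each gene and each region, every step between neighbouring group means was smaller than the larger SD of that pair. Neighbouring means are the closest ones and the SD is that of single arrays, so these steps do not judge an order from end to end. Across the 40 comparisons of 2 groups within a region, no member had groups without overlap. The share of all genes without overlap was 1.34% for the inhibitor in WT striatum, 1.24% for KO in vehicle striatum, 0.533% for the inhibitor in KO striatum and 2.11% for KO under the inhibitor in striatum. In hippocampus these shares were 0.55%, 0.588%, 0.528% and 2.06% in the same order. At such shares a count of 0 among 5 genes is near the background. No difference of these effects between regions passed either: 0 of 5 members were called for the inhibitor's effect in WT (0.214% of all genes called, limma) and 0 of 5 for the effect of the KO label in vehicle (0.0495%), with no member at an unadjusted p under 0.05 in either. Without the arrays on the opposite genotype side, still no member passed in either, beside 4.31% and 0.187% of all genes.

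Pdyn, the precursor of dynorphin and another product of direct pathway neurons, was called where no member was. It was the gene that passed among 5 further direct pathway markers in KO vehicle striatum. It is described beside the members because of its value, which was known when it was chosen. On WT vehicle arrays it read 8.17, 7.89, 8.18, 8.09 and 7.83, and on KO vehicle arrays 8.73, 9.31, 9.79, 9.24 and 10.01. Every KO array lay above every WT array, and KO array 25, on the opposite genotype side by its chromosome score, was the lowest of them. The difference was 1.39 ± 0.19 (2.61-fold, adjusted p = 0.00451, limma), and 1.56 ± 0.16 without the arrays on the opposite side. Leaving out the array with the largest Gapdh 3′ to 5′ difference in each group gave 1.44 ± 0.22 and an adjusted p of 0.0555 in limma, which no longer passes 0.05.

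The difference of Pdyn minus that of each member on the same KO vehicle and WT vehicle arrays was 1.53 for Drd1, 1.17 for Tac1, 1.42 for Slc35d3, 1.55 for Isl1 and 1.32 for Chrm4. Without array 25 these values lay between 1.30 and 1.71. They are a description with no test, since Pdyn was picked for its difference in this same comparison. With the inhibitor in WT, Pdyn ran from 8.42 through 8.82 to 9.25, also without overlap with WT vehicle, and its difference of 0.82 ± 0.18 did not pass (adjusted p = 0.0791, limma). Pdyn passed without the arrays on the opposite genotype side (0.65 ± 0.17, adjusted p = 0.0432, limma), where 4.23% of all genes passed. With array weights it also passed (0.80 ± 0.17, adjusted p = 0.03), in a fit that called 195 genes. It did not pass with the glutamatergic covariate (adjusted p = 0.13) or once each group lost its array of largest Gapdh difference (0.108). As single arrays were left out, its adjusted p ran from 0.0665 to 0.25, so none of those fits called it. On KO inhibitor arrays it read 9.08, 9.09, 9.55 and 9.51.

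**Figure D3:**
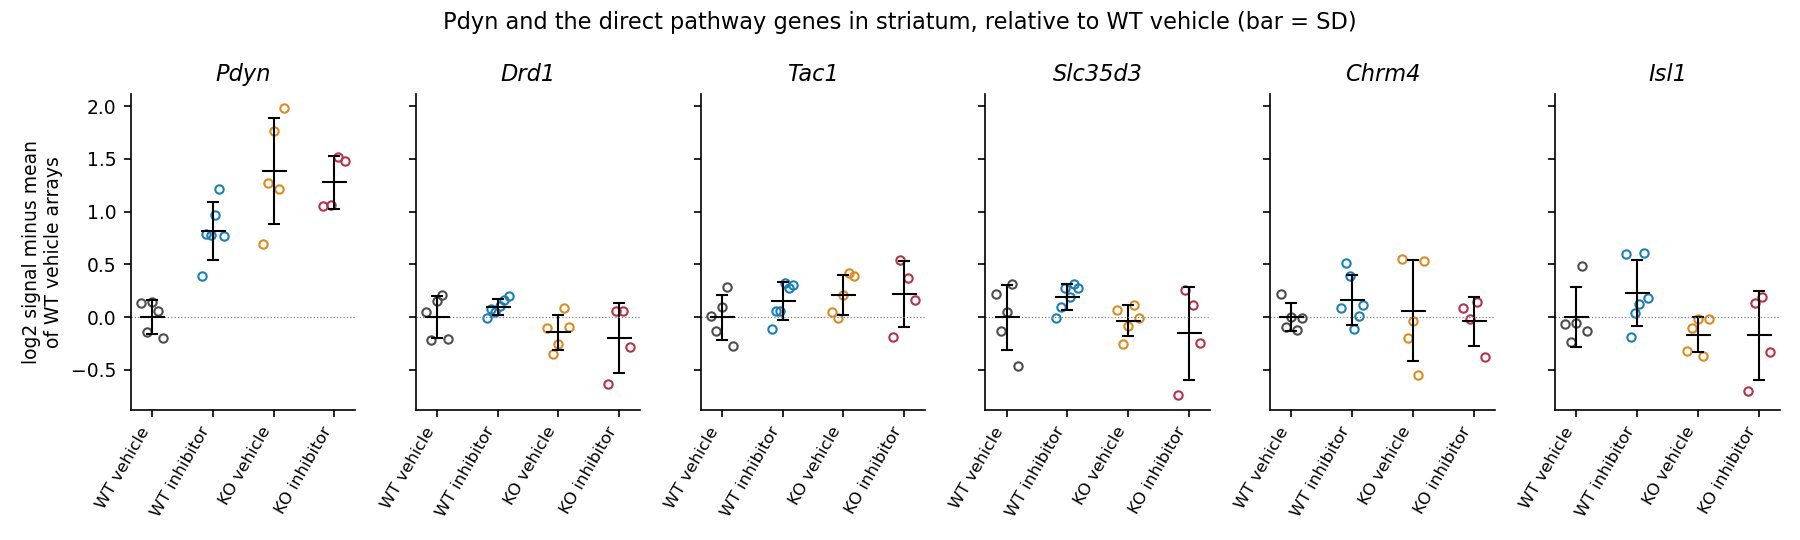
Log2 signal in striatum minus the mean of the WT vehicle arrays, for Pdyn and the 5 members, by group. Open circles are arrays, and the black mark and bar are the group mean and SD. Pdyn sits above its WT vehicle mean on all arrays of the other 3 groups, by 1.39 on average in KO vehicle, while each member's groups overlap.

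The other lists around the members gave few calls between treatments or genotypes in striatum. Of the 15 genes of D1 receptor signalling, 0 passed in limma with the inhibitor in WT (median 0.12) and 0 with the KO label in vehicle (median 0.05). Gnal read 0.30 ± 0.11 with the inhibitor in WT (adjusted p = 0.361, limma). None of the 3 indirect pathway markers, the 4 dopamine receptor genes, the 3 muscarinic receptor genes or the 9 tachykinin genes passed in the same 2 comparisons. Of 20 genes that respond to neuronal activity and cAMP, 0 passed, with 14 negative and a median of -0.18 for the inhibitor in WT, and 17 positive and a median of 0.33 for the KO label in vehicle.

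Within the groups of striatum, 3 members rose and fell together. The group mean was subtracted from each value, and the correlation of the deviations was tested over the 20 arrays by permutation within groups, 10 pairs of members in all. Drd1 and Slc35d3 gave r = 0.91 and rho = 0.90 (permutation p = 3e-05, adjusted 0.00015). Drd1 and Tac1 gave r = 0.88 and rho = 0.84 (permutation p = 2e-05, adjusted 0.00015). Tac1 and Slc35d3 gave r = 0.86 and rho = 0.80 (permutation p = 5e-05, adjusted 0.000167). KO inhibitor array 34, for example, was the lowest of its group in all 3 genes. Without the 2 arrays farthest from the median of the first gene of each pair, r was still 0.86, 0.85 and 0.77. Over the 16 striatal arrays left without those on the opposite genotype side, r was 0.91, 0.94 and 0.94.

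Isl1 followed less closely. Its r with Drd1, Tac1 and Slc35d3 was 0.53, 0.52 and 0.54 (permutation p = 0.0561, 0.0504 and 0.0541, none past 0.05 after adjustment). Without the 2 farthest arrays these were 0.30, 0.33 and 0.38. The calls of Isl1 depended on the setting. With group means kept, its r was 0.66 with Drd1 (adjusted permutation p = 0.0055) and 0.64 with Slc35d3 (0.00597), and r of Drd1 with Tac1 was 0.55. With probe sets averaged, its r was 0.64 and 0.65 with the same genes (both adjusted permutation p = 0.0386). The 4 pairs with Chrm4 gave r between -0.18 and 0.04, at its low signal. In hippocampus 0 of 10 pairs passed by Pearson's r, which lay between -0.39 and 0.53 over 22 arrays. By Spearman's rho 2 pairs passed, Drd1 with Tac1 (0.60, adjusted permutation p = 0.0399, with r = 0.51, falling to 0.36 without the 2 farthest arrays) and Slc35d3 with Isl1 (0.57, adjusted permutation p = 0.0399, with r = 0.53). As a gauge of the measurement, the 2 probe sets of a gene gave r = 0.94 for Drd1, 0.87 for Isl1 and 0.72 for Tac1 over the striatal arrays.

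**Figure D4:**
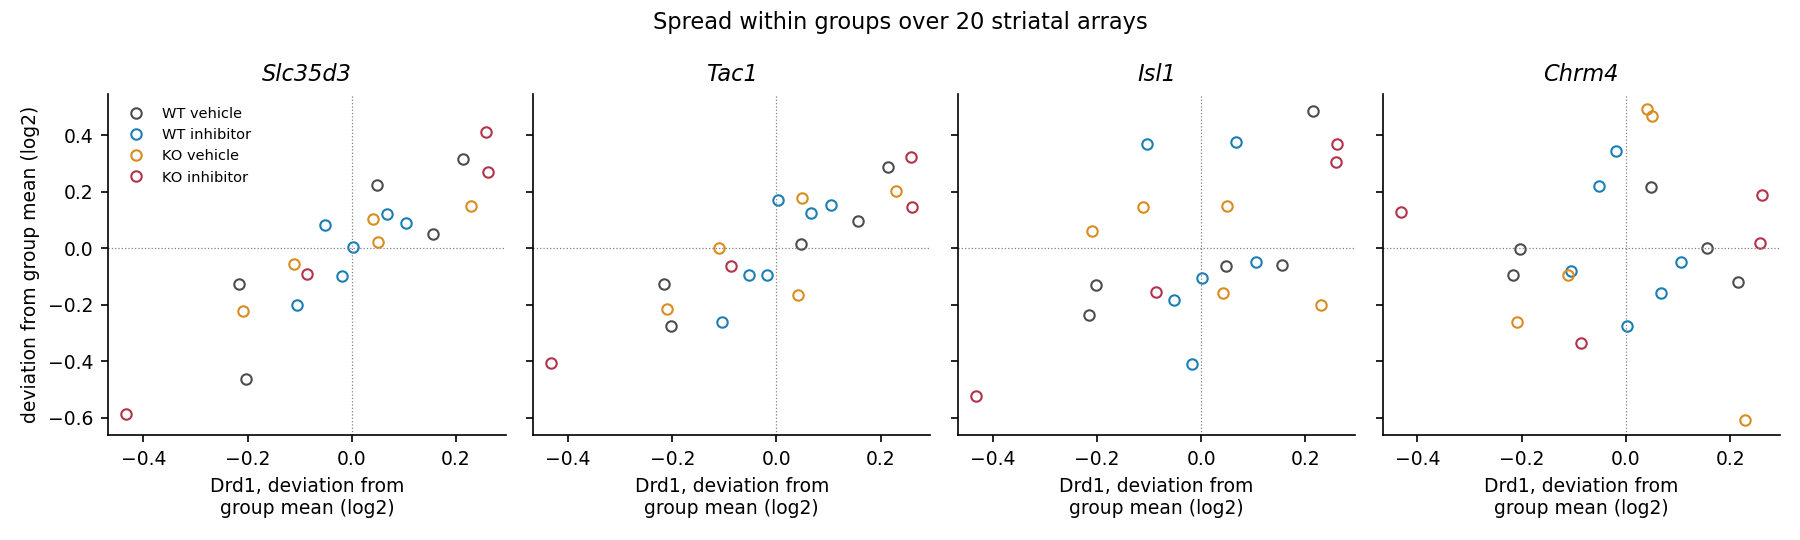
Deviation of Slc35d3, Tac1, Isl1 and Chrm4 from their group means (vertical axes, log2) against that of Drd1 (horizontal axes, log2) on the 20 striatal arrays, coloured by group. Slc35d3 and Tac1 follow Drd1 with r of 0.91 and 0.88, Isl1 follows loosely (0.53) and Chrm4 does not.

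The same deviations went with other measures of the arrays, in 20 relations computed after the pairs were seen, of which 11 had an adjusted permutation p under 0.05. The mean of the 15 shared projection neuron genes correlated with Drd1 at r = 0.93 (adjusted permutation p = 0.000267), with Tac1 at 0.85, with Slc35d3 at 0.93, with Isl1 at 0.57 and with Chrm4 at 0.08. The indirect pathway markers, genes of the other kind of projection neuron, gave r = 0.91 for Drd1, 0.77 for Tac1 and 0.93 for Slc35d3. A difference between these correlations and those among the members was not tested. The mean of the glutamatergic markers ran the opposite way, with r = -0.65 for Drd1 (adjusted permutation p = 0.0356), -0.68 for Slc35d3 (0.0415), -0.71 for Isl1 (0.0125) and -0.53 for Tac1 (0.0869). The Gapdh 3′ to 5′ difference, a measure of RNA quality that grows as RNA degrades, gave r = 0.54 for Drd1 (adjusted permutation p = 0.0459) and 0.63 for Tac1 (0.016). Spearman's rho had the same sign as r in these relations. For the Gapdh difference rho was 0.54 for Drd1, which did not pass (adjusted permutation p = 0.0536), and 0.65 for Tac1 (0.0159). Without the 2 arrays farthest from the median of the member, r with the glutamatergic markers was -0.63 for Drd1, -0.56 for Slc35d3, -0.57 for Isl1 and -0.29 for Tac1. With the Gapdh difference it was 0.63 for Drd1 and 0.57 for Tac1. This rule kept WT vehicle array 4, which had the largest Gapdh difference in striatum (1.05), so the weight of that array was not tested. The parts of dissection and of RNA quality in the shared movement were not tested.

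**Figure D5:**
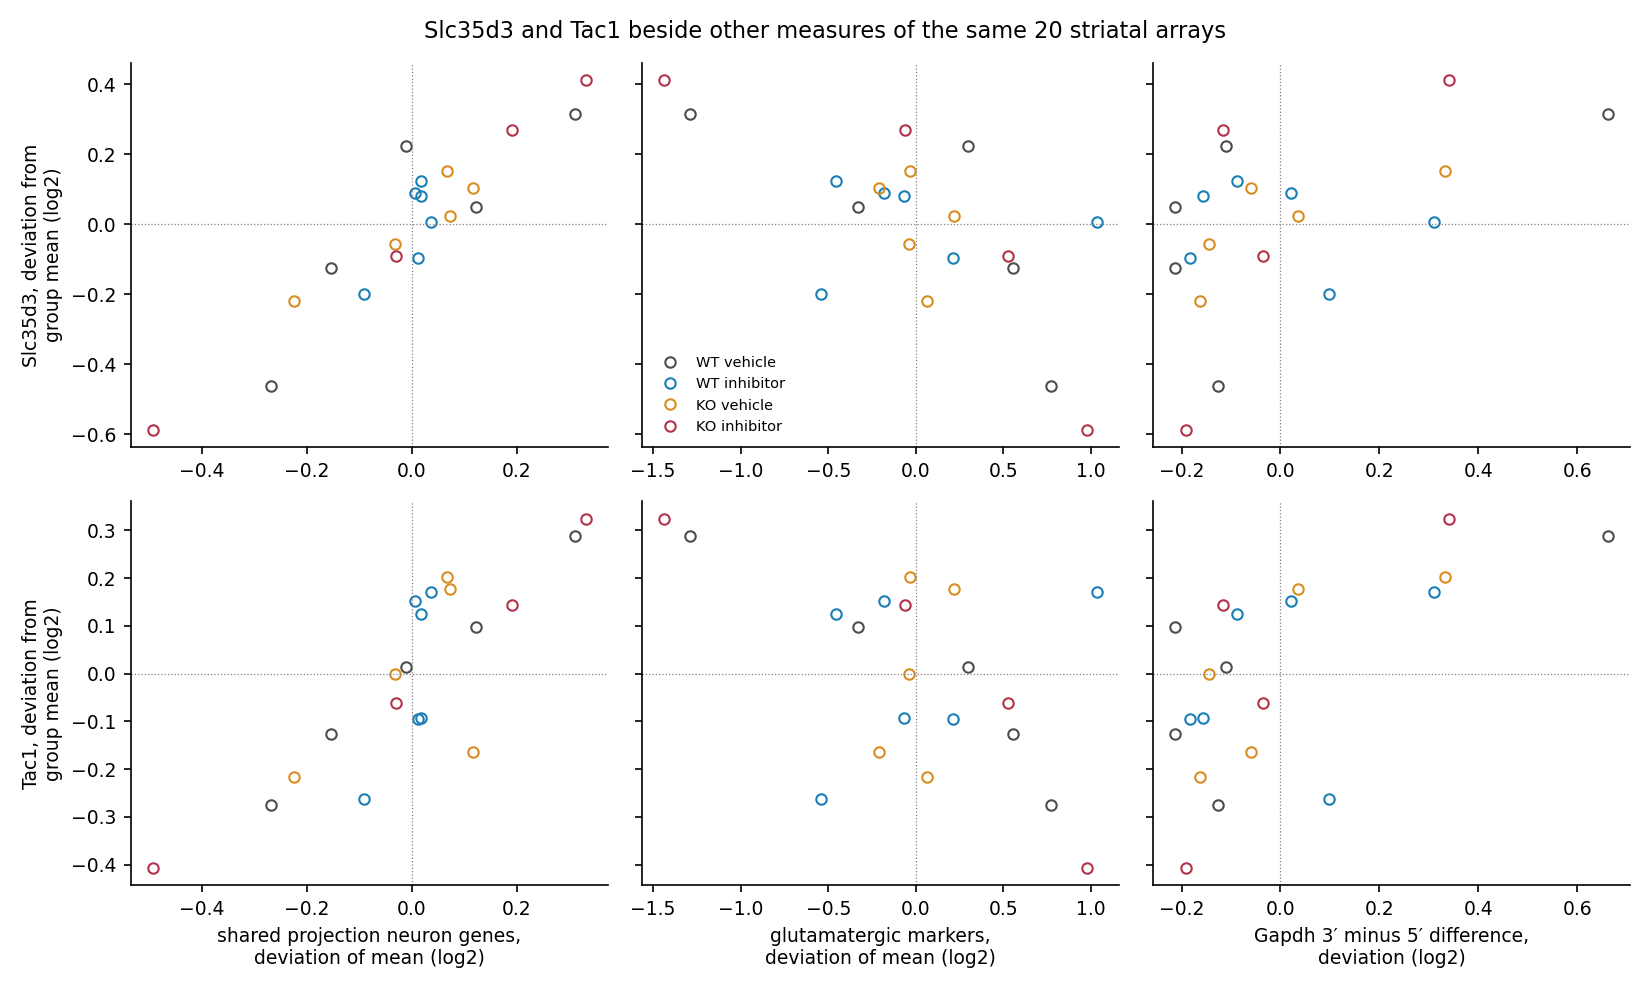
Deviation of Slc35d3 (top) and Tac1 (bottom) from their group means against deviations of 3 other measures on the 20 striatal arrays: the mean of the shared projection neuron genes, the mean of the glutamatergic markers and the Gapdh 3′ minus 5′ difference, all in log2. The points rise with the first (r of 0.93 and 0.85), fall with the second (-0.68 and -0.53) and rise more loosely with the third (0.50 and 0.63).

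The genes whose deviations were most like those of each member, among the genes with a mean signal of at least 7 in striatum, were named by the size of r over the 20 arrays. For Drd1 they were Ppp1r9a (0.92), Kdm4b (0.91) and Slc35d3 itself (0.91). For Slc35d3 they were Penk (0.92), Kazn (0.92) and Foxo1 (0.92), and Penk marks the indirect pathway. Tac1 had Pbx3 (0.95), Runx1t1 (0.95) and Osbpl8 (0.94). For Isl1 they were Rtkn (0.94), Lrwd1 (0.91) and Noc2l (0.88), and for Chrm4 they were Dnlz (0.80), Dbnl (0.80) and Nr1d1 (0.79). These were the highest of 9147 values a member (9148 for Chrm4) and carry no test. Over the 22 hippocampal arrays the same pairs gave r between -0.10 and 0.54.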

How the data were processed

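The deposited table holds log2 signals of 45101 probe sets on 42 Affymetrix arrays. They were processed by the authors with RMA, per the submitters' processing notes, and are used as deposited. Platform annotation gave 34945 probe sets a single gene, 932 several and 9160 none, and 34741 of the 34945 matched RefSeq symbols. Control probe sets (64) were left out. Each of the 18193 genes was represented by its probe set with the highest mean.

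Differences were tested by moderated linear models (limma 3.58.1, run under R 4.3.3), two-sided, fitting the 4 groups of a region together, or all 8 groups for comparisons of regions, with Benjamini-Hochberg adjustment over all genes at 0.05. No filter on low values was applied. The fit was tested on simulated data first. Correlations used 100000 permutations within groups (Python 3.11.15, scipy 1.17.1). All members were described, each with its values, and the 3 genes most like each member by r were named. Other genes come from 17 gene lists (137 of 153 entries measured), and examples from them were picked for role and size after their values were seen. The members and lists were chosen with earlier results of these data known. Replicate numbers were not used to pair samples across regions in the main fits. Over 20 shared numbers the deviations correlated between -0.38 and 0.31, and 6 pairs exceeded 0.1. Correlations between different tissues cannot settle whether a shared number is the same animal.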

Additional observations from a re-analysis of the deposited data

Results flagged for a closer look

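In 3 of 64 groups tested over the members' probe sets, 1 array stood apart from the rest of its group by Dixon's test, which by chance happens in about 1 in 20 groups. All 3 concern Isl1. In striatum, WT vehicle array 4 read 8.08 where the nearest other array of its group read 7.53. The same array had the largest Gapdh 3′ to 5′ difference of the striatal arrays, 1.05. In hippocampus the second Isl1 probe set read 5.63 on KO inhibitor array 35 where the nearest array read 3.71, and 5.27 on WT inhibitor array 11 where the nearest read 3.85.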

How the results depend on the processing

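No member was called in any comparison within a region, or between regions' effects, under any alternative run (leaving out each array, array weights, a trend in the prior variance or a filter on dim genes and the others listed here), with 1 exception: KO under the inhibitor in hippocampus called 1 member with array weights, Tac1. The most genes called in any of these fits was 1187 (6.52%), for KO under the inhibitor in striatum without the opposite-side arrays. At such shares a count of 0 among 5 genes is near the background. Of 1754 alternative values over 80 differences, 121 changed sign, 3 of them where the difference exceeded its SE, and 0 of 386 changed sign between regions. Under the glutamatergic covariate the inhibitor's difference in WT striatum became -0.0268 for Slc35d3 and -0.0284 for Isl1. Chrm4 for the inhibitor in KO hippocampus ran from -0.19 to 0.0045 as each array was left out. Pairs of members with an adjusted p under 0.05 numbered 3, and 5 with group means kept or with probe sets averaged, where Isl1 with Drd1 and Isl1 with Slc35d3 also passed.

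Over all genes, the count called for the inhibitor in WT striatum was 33 and ran from 10 with the glutamatergic covariate to 769 without the arrays on the opposite genotype side. As single arrays were left out it ran from 4, without WT inhibitor array 15, to 73, without WT inhibitor array 14. For KO in vehicle striatum it was 25, from 0 without the arrays of highest Gapdh difference to 145 without those on the opposite side, and, as single arrays were left out, from 8 without WT vehicle array 4 to 82 without KO vehicle array 25. For KO under the inhibitor in striatum it was 0, reaching 1187 without the opposite-side arrays and 187 without KO inhibitor array 35. With the replicate block, which is possible only between regions, 5 of 5 members were still called in each of the 4 regional comparisons (34%, 35.7%, 27.4% and 26.2% of all genes) and 0 in the 2 differences of effects (0.242% and 0.0495%). No paired analysis was possible within a region because its groups share no replicate numbers. The number of arrays, 4 to 6 a group and fewer in some groups without the opposite-side arrays, limits the precision, and Chrm4 was dim in both regions.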

Other observations

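The Chrm4 window held the CCAAT motif (or ATTGG) once, as did those of Tac1 and Slc35d3, and the Isl1 window held it 2 times, a motif found in 33.8% of windows of this length. Pdyn in hippocampus differed by 0.06 ± 0.12 with the KO label in vehicle (adjusted p = 0.963, limma). Its effect of the label was 1.32 ± 0.22 larger in striatum. That value is a description with no test, since Pdyn was picked for its difference on the same striatal arrays. The same difference of effects was -0.11 for Drd1, -0.29 for Tac1, 0.03 for Slc35d3, -0.18 for Chrm4 and -0.26 for Isl1. No member was called, beside 0.0495% of all genes.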
